A study of Mus musculus with 21 samples.

Results

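The chemokines that place lymphocytes and dendritic cells inside lymphoid tissue, and the receptors that read them, were followed in skin and inguinal lymph nodes of mice that overexpress interferon kappa. The group has 7 genes, the ligands *Ccl19*, *Ccl21a*, *Cxcl13* and *Cxcl12* and the receptors *Ccr7*, *Cxcr5* and *Cxcr4*. They were taken by gene symbol, which matched 9 of the 55491 gene rows in each tissue's table, because *Ccl19* and *Ccl21a* each have a second row. *Ifnk* transgenic (TG) mice carry *Ifnk* under the keratin 14 promoter, which is active in basal keratinocytes and directs the transgene to the epidermis. Whether these mice also express it elsewhere was not measured here. They were made on C57BL/6 with a PiggyBac vector and bred onto BALB/c, the strain of the wild-type (WT) controls. Skin was taken without irradiation at 12 months of age from WT mice (3 libraries), from nonlesional TG skin (NL, 2 libraries) and from lesional TG skin (L, 4 libraries). Lymph nodes came from WT and TG mice that were either untreated (no UVB) or shaved and given 250 mJ/cm2 of UVB on 3 days a week for 2 weeks, with harvest after 2 further weeks (UVB), with 3 libraries in each of these 4 groups. The labels give no age for the lymph node mice, and for no library a sex, a body site or a mouse. Each library has a number of its own within its tissue (WT skin 8, for example), all are placed in batch 1, and whether NL and L skin came from the same mice is not stated. The study counts its UVB node groups in mice, but the labels tie no library to a mouse. Where libraries of a group did not come from separate mice, p-values measure only the spread between libraries, which may be technical.

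CCR7 is carried by naive T cells and by mature dendritic cells and guides them towards CCL19 and CCL21, which stromal cells of the T cell zone and lymphatic vessels make. CXCR5 is carried by B cells and follicular helper T cells and guides them towards CXCL13 of the B cell follicle, where marginal reticular and follicular dendritic cells make it. CXCL12 is made by many stromal cells, also outside lymphoid organs, and its receptor CXCR4 is found on most white blood cells. In chronically inflamed tissue the same ligands can appear at sites of lymphocyte clusters, and in resting skin CCL21 marks lymphatic vessels through which dendritic cells leave.

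The depth was 40499078 to 56511276 counts in the skin libraries. Lymph node libraries were shallower, with 27599809 to 36428435 counts. A floor of 3 counts corresponds to 5.31e-06% to 7.41e-06% of all counts in skin and to 8.24e-06% to 1.09e-05% in lymph nodes. These floors cover counting error only. The summed level of 6 keratinocyte genes was 7803 to 22665 CPM (the count relative to the normalized library size) in skin and 1.20 to 2.51 CPM in lymph nodes, and that of 8 B cell genes was 1341 to 2622 CPM in lymph nodes and at most 7.42 CPM in skin. *Ifnk* itself had 5 to 14 counts in L libraries, 0 to 6 in NL libraries and 0 in WT skin and in all 12 lymph node libraries, and whether transcripts of the transgene were counted under *Ifnk* is not known, so these counts do not check the labels. L skin also differed in tissue make-up. The summed level of 6 skeletal muscle genes was 22.9 to 6456 CPM in L skin against 23272 to 34599 CPM in NL and WT skin, and that of 5 hair shaft keratins was 1136 to 4275 CPM against 0.148 to 1.08 CPM. Lymph nodes were pushed through a cell strainer before lysis.

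All 7 genes passed the filter on low counts in both tissues, each through its main row. The main rows of *Ccl19* (chromosome 4, 42754525 to 42756577) and *Ccl21a* (chromosome 4, 42772860 to 42773993) lie next to each other on the minus strand of GRCm38 in the GENCODE M21 annotation. Their second rows lie on the unplaced scaffold JH584294.1 and held at most 2 and 10 counts in any library. The near-identical *Ccl21b* held at most 21, and *Ccl21c*, *Ccl21d* and the *Ccl19* pseudogenes held 0. How reads are shared among such near-identical copies is uncertain, and the values of *Ccl19* and *Ccl21a* carry that uncertainty. Both rows lie within *4930578G10Rik*, and the *Cxcr5* row overlaps the end of *Bcl9l*, each on the opposite strand. Whether strand was used in counting is not given in the sources used here, so reads in these overlaps cannot be told apart. The other rows are *Ccr7* (chromosome 11, 99144196 to 99155077), *Cxcl13* (chromosome 5, 95956951 to 95961068), *Cxcr5* (chromosome 9, 44511787 to 44561877), *Cxcl12* (chromosome 6, 117168535 to 117181367) and *Cxcr4* (chromosome 1, 128588199 to 128592293).

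To compare the genes with each other, levels were divided by exon length. In WT skin 3 of the 4 ligands led, and *Ccl19* lay among the receptors. *Ccl21a* stood highest with 76.4 ± 19.4 CPM per kb (SD, n = 3), followed by *Cxcl12* with 24.7 ± 3.86 and *Cxcl13* with 7.40 ± 1.71 CPM per kb. *Cxcr4* (2.71 ± 1.38 CPM per kb) and *Ccl19* (0.973 ± 0.640 CPM per kb) came next and their libraries overlapped. *Ccr7* had 0.167 ± 0.103 and *Cxcr5* 0.0339 ± 0.0238 CPM per kb, and *Cxcr5* held only 0 to 18 counts in any skin library. In WT lymph nodes without UVB the order was different, with the receptor *Ccr7* highest at 238 ± 13.1 CPM per kb (SD, n = 3). *Ccl21a* (65.3 ± 8.71 CPM per kb), *Cxcr4* (53.5 ± 12.8) and *Cxcr5* (41.2 ± 1.90) formed a middle group in which each overlapped the next. *Ccl19* (12.9 ± 4.51 CPM per kb) and *Cxcl13* (12.2 ± 1.18) could not be separated by their spread, and *Cxcl12* was lowest with 1.80 ± 0.205 CPM per kb. *Ccl21a* therefore held similar levels per kb in WT skin (57.8 to 96.4) and WT lymph nodes (56.1 to 73.4), while *Cxcl12* was higher in each WT skin library (21.6 to 29.0) than in any lymph node library (at most 4.11). The tissues were normalized separately and these levels were not tested against each other.

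**Figure D1:**
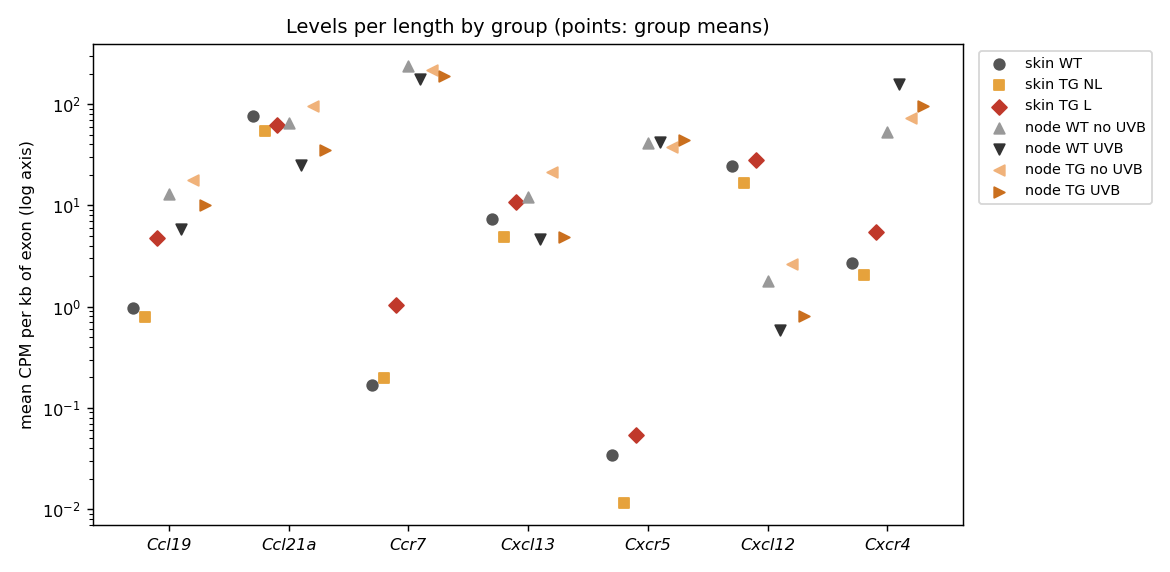
Mean level of each chemokine or receptor gene in CPM per kb of exon (log axis) in the 3 skin groups and the 4 lymph node groups, with a symbol for each group mean. *Ccl21a* lies at similar heights in both tissues, the receptors *Ccr7* and *Cxcr5* lie far lower in skin, and *Cxcl12* lies lower in lymph nodes.

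The first comparison asked which of these signals differ in lesional skin. In L skin the receptors *Ccr7* and *Cxcr4* and the ligand *Ccl19* were higher than in WT skin and higher than in NL skin, while *Ccl21a*, *Cxcl13*, *Cxcl12* and *Cxcr5* passed the test in neither comparison. These 3 of 7 genes were called by edgeR's quasi-likelihood F-test at an adjusted p (Benjamini-Hochberg over all tested genes) under 0.05. Against WT skin the same threshold called 43.1% of the 19101 tested genes, 23% higher and 20.2% lower in L skin, and 51.7% had an unadjusted p under 0.05. Against NL skin it called 25% of them, 13.2% higher and 11.8% lower, and 39% had an unadjusted p under 0.05. The median log2 fold change of the 7 genes was 0.67 against WT and 1.40 against NL skin, beside 0.06 and 0.03 over all tested genes. *Ccl19*, *Ccr7* and *Cxcr4* were also the 3 genes whose L libraries lay above every WT and every NL library, which held for 26% of all genes against WT and 24.7% against NL skin, while 23.4% and 24.7% lay below. Both comparisons share the L libraries and are not independent.

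*Ccr7*, the receptor for both CCL19 and CCL21, had 1.88, 2.17, 2.58 and 1.51 CPM in L libraries 4, 5, 6 and 7. It had 0.440 and 0.343 CPM in NL libraries 2 and 3, and 0.525, 0.119 and 0.346 CPM in WT libraries 8, 9 and 10. The lowest L library thus lay well above the highest of the other 5, although WT library 9 rested on 5 counts. The increase over WT skin was 6.11-fold, with a log2 fold change of 2.61 ± 0.47 (SE) and an adjusted p of 0.00266. Over NL skin it was 5.15-fold, with a log2 fold change of 2.36 ± 0.54 (SE) and an adjusted p of 0.0150. Mature dendritic cells and naive T cells are the main carriers of this receptor. Genes of mature dendritic cells and of T cells in general were partly higher in L skin as well. The summed level of 8 naive or central memory T cell genes overlapped between groups. It was 203 to 272 CPM in L, 221 to 245 CPM in NL and 180 to 232 CPM in WT skin. Within groups Pearson r of *Ccr7* with the list mean (log2 CPM) was 0.0034 for dendritic, 0.53 for T cell and -0.22 for naive genes. Over all 9 skin libraries, group differences included, r was 0.85, 0.92 and 0.78 in the same order. Of 7 tested genes of mature migratory dendritic cells 4 rose against WT skin (*Fscn1*, *Ccl5*, *Ccl22* and *Ccl17*) and 1 fell (*Socs2*). Their summed level was 84.0 to 106 CPM in L skin against 58.4 to 69.6 CPM in NL and WT skin. Of 9 T cell genes 6 rose against WT and 2 against NL skin, with a summed level of 31.4 to 80.3 CPM in L and 30.2 to 46.4 CPM in NL and WT skin. Their mean log2 level, relative to its mean over the skin libraries, was -0.062 to 1.59 in L skin. It was -0.93 to -0.31 in NL and -1.29 to -0.76 in WT skin. The part of these cells in the *Ccr7* result was not tested, and in these bulk samples more cells of a type and more RNA per cell cannot be told apart.

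*Ccl19*, the CCR7 ligand that is released in soluble form, had 2.31, 3.53, 7.12 and 3.59 CPM in L libraries 4 to 7. It had 0.822 and 0.540 CPM in NL libraries 2 and 3, and 0.547, 0.499 and 1.48 CPM in WT libraries 8, 9 and 10. All L libraries lay above the rest, with L library 6 highest and WT library 10 closest to the L group. It was 4.90-fold higher than in WT skin (log2 fold change 2.29 ± 0.53, SE, adjusted p = 0.00839) and 6.02-fold higher than in NL skin (2.59 ± 0.63, adjusted p = 0.0189). Without WT library 10 the log2 fold change over WT skin was 2.97. *Ccl21a*, the other CCR7 ligand, which binds to matrix through a long basic tail, behaved otherwise. It had 19.9, 104, 51.9 and 42.0 CPM in L libraries 4 to 7, which spanned the whole range of the 2 NL libraries (41.5 and 52.1 CPM) and of the 3 WT libraries (50.2, 83.9 and 65.4 CPM). Its log2 fold change was -0.29 ± 0.48 (SE, 95% interval -1.39 to 0.80) against WT and 0.21 ± 0.55 (-1.04 to 1.47) against NL skin. L library 4, the lowest in *Ccl21a*, was the highest in *Cxcl12* and *Cxcl13*.

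*Cxcr4*, the CXCL12 receptor, had 10.5, 8.51, 10.2 and 9.78 CPM in L libraries 4 to 7, the narrowest spread, relative to the mean, of these genes in L skin. It had 3.84 and 3.53 CPM in NL libraries 2 and 3, and 4.01, 7.72 and 2.97 CPM in WT libraries 8, 9 and 10. WT library 9 alone came near the L group. *Cxcr4* was 1.99-fold higher than in WT skin (log2 fold change 0.99 ± 0.30, SE, adjusted p = 0.0262) and 2.64-fold higher than in NL skin (1.40 ± 0.35, adjusted p = 0.0217). Its ligand *Cxcl12* had 274, 117, 258 and 266 CPM in L libraries 4 to 7, 154 and 115 CPM in NL libraries 2 and 3, and 177, 192 and 237 CPM in WT libraries 8, 9 and 10. L library 5 stood apart at the NL level while the other L libraries lay above all NL and WT libraries. With all libraries the log2 fold change was 0.18 ± 0.28 (SE, 95% interval -0.47 to 0.82) against WT and 0.76 ± 0.33 (0.01 to 1.52, adjusted p = 0.124) against NL skin. Without L library 5 the difference from NL skin passed the test, with a log2 fold change of 0.98 and an adjusted p of 0.00688.

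The follicle pair did not pass in skin. *Cxcl13*, the B cell attractant, had 24.5, 5.45, 14.9 and 4.94 CPM in L libraries 4 to 7, so that 2 L libraries lay above all others and 2 lay within the NL range. It had 4.76 and 6.45 CPM in NL and 7.64, 10.8 and 7.12 CPM in WT libraries. Its log2 fold change was 0.55 ± 0.55 (SE, 95% interval -0.70 to 1.80) against WT and 1.15 ± 0.65 (-0.33 to 2.64) against NL skin, and without L library 4 it was -0.01 against WT skin. *Cxcr5*, its receptor, had 18, 10, 6 and 1 counts in L libraries 4 to 7, 4 and 0 in NL libraries and 1, 6 and 7 in WT libraries. A difference was not detectable at this depth, with 95% intervals of the log2 fold change of -1.64 to 2.98 against WT and -0.95 to 5.07 against NL skin. Of 8 B cell genes 3 rose against WT skin (*Cd22*, *Fcrla* and *Blk*) and 0 against NL skin, with summed levels of 4.94 to 7.42 CPM in L and 1.19 to 4.23 CPM in the other libraries. Of 6 tested germinal centre genes 0 rose, and *Bcl6* and *Mef2b* fell in both comparisons. Of 5 tested follicular helper T cell genes 3 rose against WT skin (*Icos*, *Pdcd1* and *Sh2d1a*) and *Bcl6* fell. The summed level of this list was 40.4 to 59.7 CPM in L and 81.0 to 122 CPM in NL and WT skin. The mean log2 level of its 5 tested genes, relative to the mean over the skin libraries, went the other way. It was 0.51 to 1.71 in L, -1.27 to -0.57 in NL and -1.01 to -0.64 in WT skin. In which cells *Bcl6* fell cannot be told in bulk skin. Against WT skin 23% of all genes were called higher and 20.2% lower.

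**Figure D2:**
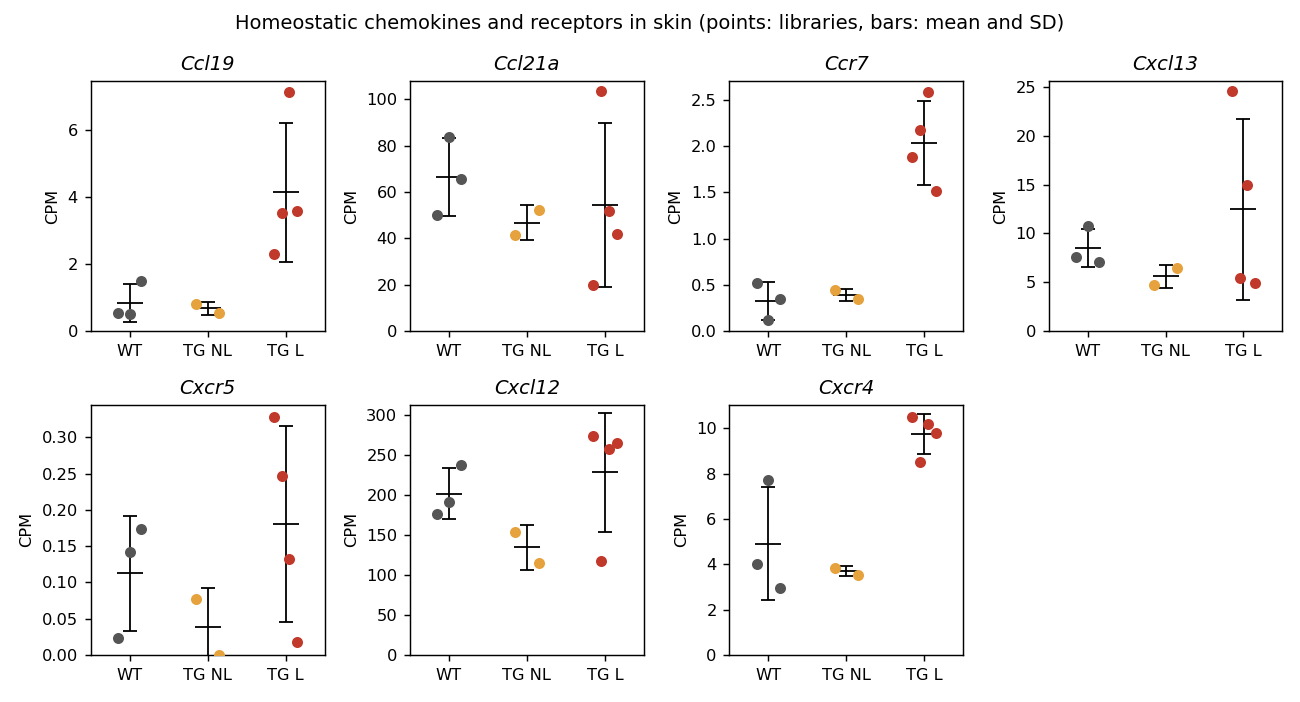
CPM of the 7 genes in each skin library (points) of WT, nonlesional TG (TG NL) and lesional TG (TG L) skin, with group means and SD as bars. The L points of *Ccl19*, *Ccr7* and *Cxcr4* lie above all others, *Ccl21a* and *Cxcl13* spread widely in L skin, and 1 L library of *Cxcl12* lies at 117 CPM while the other 3 lie between 258 and 274 CPM.

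These calls had limits. Against NL skin the calls rest on 2 NL libraries and did not hold when either was left out. Such a fit keeps 1 library in the NL group, and calls over all genes were then also far fewer. Over the 6 fits without 1 library the log2 fold change of *Ccl19* was 2.20 to 2.93. It was 2.22 to 2.56 for *Ccr7* and 1.36 to 1.46 for *Cxcr4*. Against WT skin *Ccl19* and *Ccr7* passed in 7 of 7 fits without 1 library, and *Cxcr4* in 4 of 7, losing the call without L library 6 or WT libraries 8 or 10 (adjusted p up to 0.0910). *Cxcr4* also missed the threshold when WT and L libraries alone were fitted (adjusted p = 0.0502). When the mean log2 level of the skeletal muscle genes, which separates L skin from the rest, was added to the fit (chosen after the data were seen), 0 of the 3 passed against WT skin. Their log2 fold changes were then 1.81 for *Ccl19* (adjusted p = 0.204), 2.30 for *Ccr7* (adjusted p = 0.0586) and 1.18 for *Cxcr4* (adjusted p = 0.137), and *Ccl21a* was instead lower by 2.10 on the log2 scale (adjusted p = 0.00973). Against NL skin the same fit called *Ccl21a* lower (log2 fold change -1.53, adjusted p = 0.0474) and *Cxcl12* higher (1.56, adjusted p = 0.0298), while *Ccl19* (adjusted p = 0.198), *Ccr7* (0.130) and *Cxcr4* (0.0994) did not pass. In that fit 13.3% of all genes were called against WT and 6.16% against NL skin.

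NL skin was compared with WT skin to ask whether TG skin without a lesion differed from WT skin. By edgeR 0 of the 7 genes passed, 0 had an unadjusted p under 0.05, and DESeq2 also called 0, with no adjusted p for *Cxcr5*. DESeq2 called 0.419% of all genes. Over all genes edgeR called 0% at an adjusted and 7.67% at an unadjusted p under 0.05. *Cxcl12* and *Cxcl13* were the genes whose NL libraries lay below every WT library, as did 16.3% of all genes (18.6% lay above), with log2 fold changes of -0.59 (95% interval -1.37 to 0.20) and -0.60 (-2.12 to 0.91). For the genes called in L skin the differences were -0.30 for *Ccl19* (-1.69 to 1.10), 0.25 for *Ccr7* (-0.99 to 1.48) and -0.41 for *Cxcr4* (-1.22 to 0.40). The intervals are wide because NL skin had 2 libraries.

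Upstream sequences of *Cxcl13* and *Cxcr4* are shown because each holds a match to 1 of 4 motifs searched close to the start of the gene. RefSeq promoter windows of GRCm38.p6, which run from 250 bases before to 50 bases after the RefSeq start of a gene, matched 5 of the 7 symbols (*Ccl19*, *Ccl21a*, *Cxcl13*, *Cxcl12* and *Cxcr4*). They were searched on both strands for the interferon-stimulated response element (GAAA, any 2 bases, GAAA), the gamma-activated site TTCNNNGAA and the κB site, and on the gene's strand for the TATA box TATAAA. For the TATA box the share of all windows counts matches on either strand. Each sequence holds the 250 bases before the RefSeq start, 5′ to 3′ on the gene's strand, with the match in capitals.
*Cxcl13* (chr5:95956689-95956938, plus strand): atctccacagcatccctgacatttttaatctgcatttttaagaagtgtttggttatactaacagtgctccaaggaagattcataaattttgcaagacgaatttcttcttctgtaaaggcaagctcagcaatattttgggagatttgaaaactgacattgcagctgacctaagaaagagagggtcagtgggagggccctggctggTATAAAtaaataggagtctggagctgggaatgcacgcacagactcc
*Cxcr4* (chr1:128592300-128592549, minus strand): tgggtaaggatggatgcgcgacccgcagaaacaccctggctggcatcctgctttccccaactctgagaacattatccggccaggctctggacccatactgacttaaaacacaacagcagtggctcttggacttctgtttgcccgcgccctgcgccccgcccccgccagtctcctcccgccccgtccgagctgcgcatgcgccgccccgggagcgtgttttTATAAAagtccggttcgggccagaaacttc
The TATA box match begins 46 bases before the RefSeq start in *Cxcl13* (58 before the GENCODE start) and 30 bases before it in *Cxcr4* (36 before the outermost GENCODE start), and 13.616% of all 32851 windows hold such a match. In *Ccl19*, which rose in L skin, the letters GAAAGTGAAA at chr4:42756564-42756573 match the interferon-stimulated response element, as 3.443% of windows do. The annotations disagree on where *Ccl19* starts, with the RefSeq start 212 bases inside the GENCODE gene. The match lies before the RefSeq start and before the start of 2 of 3 GENCODE transcripts, but inside the first exon of the third. The κB site, found in 8.459% of windows, and the gamma-activated site, found in 8.298%, had no match in the 5 windows, and *Ccl21a* and *Cxcl12* had no match to any of the 4 motifs. Each window with a match held a single one, so none overlaps another, and whether a factor binds any of them was not measured.

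Genes around these receptors and ligands were taken as fixed lists. The counts below stand beside 23% of all genes called higher and 20.2% lower against WT skin. Against NL skin these shares were 13.2% and 11.8%. Of 14 genes of the lymphotoxin and noncanonical NF-κB route, which builds and maintains lymphoid stroma, 4 rose and 0 fell in L against WT skin. They were *Tnfsf11* (RANKL, log2 fold change 4.39), *Ltb* (the membrane part of lymphotoxin, 2.20), *Tnfsf14* (LIGHT, 1.92) and *Tnf* (2.39), with adjusted p from 0.000347 to 0.0416. Against NL skin *Tnfsf11* (4.39), *Tnfsf14* (1.70) and *Ltb* (1.87) rose. The receptors *Ltbr* and *Tnfrsf1a*, the kinase *Map3k14* and the subunits *Relb* and *Nfkb2* passed in neither comparison. Of a list of 11 genes for scavenging and processing of chemokines, not all of which act on these ligands, 2 rose and 4 fell against WT skin. The falls included the scavenging receptors *Ackr4*, which removes CCL19 and CCL21 (log2 fold change -0.94, adjusted p = 0.0486), and *Ackr3*, which removes CXCL12 (-1.19, adjusted p = 0.00418), with *Ackr2* (-1.18) and *Dpp4*, the peptidase that inactivates CXCL12 (-1.03). *Cxcl14*, which binds CXCR4 (1.13), and *Hmgb1*, which forms a complex with CXCL12 (0.47), rose. *Ackr4* was also lower against NL skin (-1.35, adjusted p = 0.0285), as was *Ackr2* (-1.64). Of 19 signalling genes 2 rose and 2 fell against WT skin, the fall of the arrestin *Arrb1* by 0.93 on the log2 scale having the smallest p, and of 16 genes for other positioning cues 2 rose and 2 fell, with the egress receptor *S1pr1* at -1.53 and *S1pr3* at 2.34.

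The second set of comparisons asked how UVB on the skin was followed in the draining lymph node. After UVB all 4 ligands had lower group means in WT and in TG nodes, and *Ccr7* was lower and *Cxcr4* higher in the means of both genotypes, while *Cxcr5* stayed between 80.8 and 191 CPM in all 12 libraries. In WT nodes alone only *Ccr7* passed edgeR's test, beside 4.98% of the 16173 tested genes called, 2.06% lower and 2.92% higher. Of the 7 genes 5 had an unadjusted p under 0.05 there, as had 26.3% of all genes. Over both genotypes together *Cxcl13*, *Cxcl12* and *Ccr7* passed, all lower, beside 8.61% of genes called, 3.8% lower and 4.81% higher. Here 5 of the 7 and 28.2% of all genes had an unadjusted p under 0.05. In TG nodes alone 0 passed, where edgeR called 0% of all genes. At an unadjusted p under 0.05, 4 of the 7 differed in TG nodes (*Ccl21a*, *Ccr7*, *Cxcl13* and *Cxcl12*) beside 9.32% of all genes, and DESeq2 called 1 of 7 (*Cxcl13*) there, beside 0.847% of all genes. The median log2 fold change of the 7 genes was -1.13 in WT, -0.79 in TG and -0.96 over both, beside -0.0048, 0.019 and 0.0065 over all tested genes.

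*Cxcl13* had 13.2, 13.3 and 15.6 CPM in WT no UVB libraries 1, 2 and 3 and 7.78, 4.29 and 4.11 CPM in WT UVB libraries 7, 8 and 9. In TG nodes it had 18.97, 38.8 and 15.1 CPM in no UVB libraries 4, 5 and 6 and 4.33, 3.27 and 9.15 CPM in UVB libraries 10, 11 and 12. Within each genotype every UVB library lay below every library without UVB, as held for 17.3% of all genes in WT and 7.11% in TG nodes. The fall over both genotypes was 3.36-fold (log2 fold change -1.75 ± 0.31, SE, adjusted p = 0.0146), and it passed in 12 of 12 fits without 1 library. Within WT nodes it was -1.38 ± 0.44 on the log2 scale (adjusted p = 0.0919), which passed with DESeq2 (adjusted p = 0.0335) and in a fit of the WT libraries alone (0.0046). Within TG nodes it was -2.12 ± 0.45 (adjusted p = 0.180).

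*Ccr7* had 467, 448 and 499 CPM in WT no UVB libraries 1 to 3 and 348, 330 and 369 CPM in WT UVB libraries 7 to 9. In TG nodes it had 417, 441 and 440 CPM without and 344, 391 and 398 CPM with UVB. The difference was small beside that of *Cxcl13* but the libraries of a group lay close together. Within each genotype the UVB and no UVB libraries did not overlap. *Ccr7* fell by 0.31 on the log2 scale over both genotypes (SE 0.06, adjusted p = 0.0144), which also passed in 12 of 12 fits without 1 library. In WT nodes it fell 1.35-fold (log2 fold change -0.43 ± 0.09, SE, adjusted p = 0.0261), a call that was lost without WT UVB library 8 or 9 or WT no UVB library 3 (adjusted p up to 0.139). In TG nodes the value was -0.20 ± 0.09 (adjusted p = 0.511). Naive T cells and mature dendritic cells carry the receptor. The summed level of 8 naive or central memory T cell genes overlapped between treatments in both genotypes. It was 4715 to 5488 CPM without and 4217 to 4896 CPM with UVB in WT nodes. In TG nodes these values were 4356 to 4649 and 3846 to 4732 CPM. The mean log2 level of the list, relative to its mean over the node libraries, did not overlap in WT nodes. It was 0.067 to 0.26 without and -0.15 to 0.047 with UVB there. In TG nodes it overlapped, at -0.077 to 0.017 without and -0.25 to 0.069 with UVB. Within groups Pearson r of *Ccr7* with the list mean (log2 CPM) was 0.69 for naive, 0.65 for T cell and -0.23 for mature dendritic genes. Over all 12 node libraries, group differences included, r was 0.69, 0.80 and 0.28 in the same order. Of the T cell list 2 of 9 T cell genes (*Cd2* and *Cd5*) fell in WT nodes, where the summed level of the list was 2906 to 2914 CPM without and 2248 to 2505 CPM with UVB. In TG nodes the summed T cell level overlapped, at 2537 to 2719 CPM without and 2408 to 2960 CPM with UVB. Of 8 mature migratory dendritic cell genes 3 (*Ccl22*, *Ccl5* and *Fscn1*) fell over both genotypes, with a summed level of 200 to 254 CPM with and 227 to 386 CPM without UVB. A summed erythroid list was also lower, at 10.8 to 160 CPM with against 121 to 304 CPM without UVB, and 6 of its 6 genes fell over both genotypes. Their part in the *Ccr7* result was not tested.

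*Cxcl12* had 14.8, 16.3 and 13.0 CPM in WT no UVB libraries 1 to 3 and 9.40, 2.65 and 2.39 CPM in WT UVB libraries 7 to 9. In TG nodes it had 16.1, 33.6 and 15.1 CPM without and 4.68, 3.24 and 11.7 CPM with UVB. Its UVB libraries lay below the others in both genotypes. The fall over both genotypes was 3.16-fold (log2 fold change -1.66 ± 0.44, SE, adjusted p = 0.0471), which stood close to the threshold and passed in 2 of 12 fits without 1 library, those without TG UVB library 12 (log2 fold change -2.04, adjusted p = 0.0127) or WT UVB library 7 (-2.13, adjusted p = 0.0144). In the other 10 such fits it did not pass, with an adjusted p of up to 0.112, nor did it with no filter on low counts (0.104) or with *Xist* as a covariate (0.0642). *Ccl21a* followed the same libraries. It had 57.9, 63.8 and 48.8 CPM in WT without and 37.7, 13.0 and 13.9 CPM with UVB, and 59.9, 134 and 57.8 CPM in TG without and 19.8, 18.3 and 54.1 CPM with UVB. Its log2 fold change over both genotypes was -1.42 ± 0.40 (SE, 95% interval -2.34 to -0.51) with an adjusted p of 0.0610, just outside the threshold, and it passed without TG UVB library 12 (-1.79, adjusted p = 0.0154) or WT UVB library 7 (-1.76, adjusted p = 0.0288), with DESeq2 (adjusted p = 0.00763) and with no robust estimation (0.0266).

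*Ccl19* overlapped between treatments. It had 14.6, 11.9 and 6.94 CPM in WT without and 8.92, 3.49 and 2.88 CPM with UVB, and 16.5, 19.7 and 9.71 CPM in TG without and 4.68, 4.11 and 17.7 CPM with UVB. Its log2 fold change over both genotypes was -0.96 ± 0.44 (SE, 95% interval -1.96 to 0.04, adjusted p = 0.190). TG UVB library 12 had the highest *Ccl19* of the UVB libraries and without it the value was -1.48 with an adjusted p of 0.0177. The non-overlapping libraries of *Ccl21a*, *Ccr7*, *Cxcl12* and *Cxcl13* within each genotype stand beside 17.3% of all genes with UVB below no UVB in WT nodes and 7.11% in TG nodes, where 6.23% lay above.

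*Cxcr4* went the other way. It had 114, 106 and 70.4 CPM in WT without and 281, 379 and 199 CPM with UVB, groups that did not overlap, as held for 19.8% of all genes in this direction. The log2 fold change in WT nodes was 1.56 ± 0.55 (SE, 95% interval 0.32 to 2.81, adjusted p = 0.121), while DESeq2 gave an adjusted p of 0.0467 and a fit of the WT libraries alone 0.0269. In TG nodes it had 95.8, 158 and 136 CPM without and 74.8, 99.4 and 345 CPM with UVB, so that a single library, TG UVB 12, carried the higher mean. The log2 fold change there was 0.41 ± 0.54 (95% interval -0.81 to 1.63), and without that library it was -0.60. *Cxcr5* had 134, 133 and 145 CPM in WT without and 160, 133 and 132 CPM with UVB, a log2 fold change of 0.05 (95% interval -0.45 to 0.54). In TG nodes *Cxcr5* was lowest without UVB in library 5 (80.8 CPM), the library with the highest *Ccl21a*, *Cxcl13* and *Cxcl12*, and highest with UVB in library 12 (191 CPM).

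**Figure D3:**
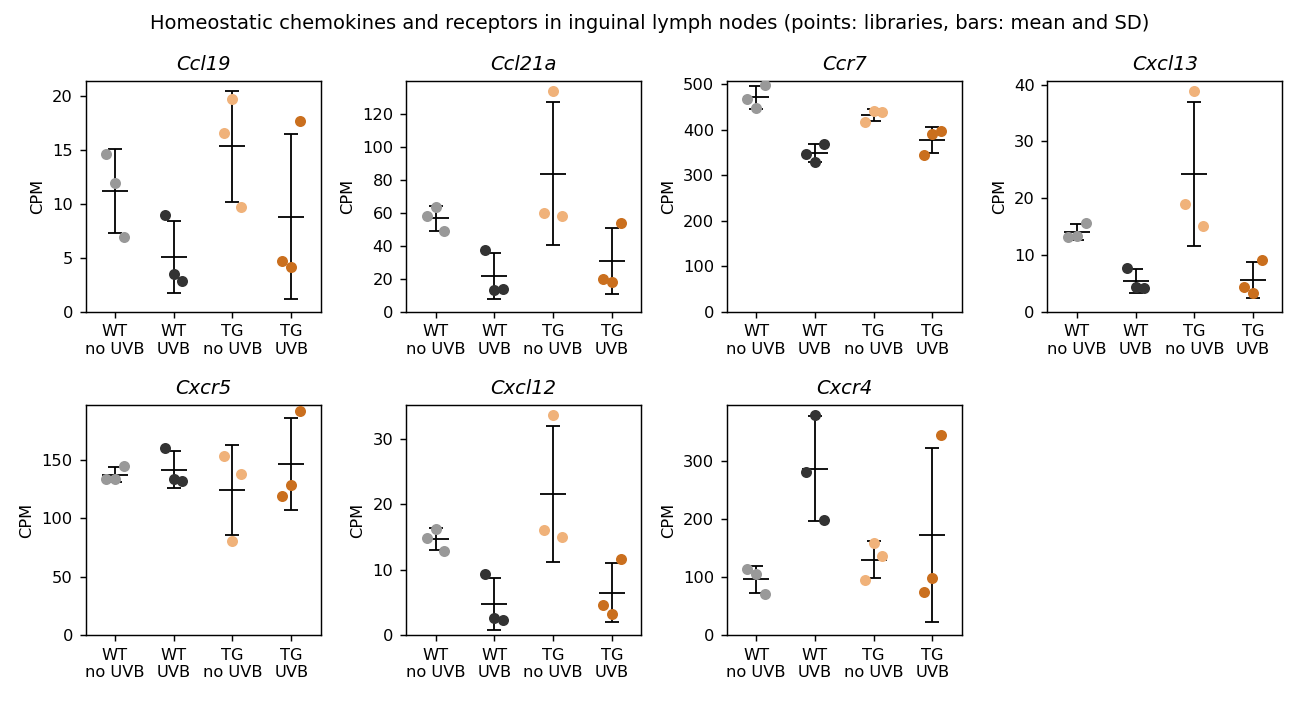
CPM of the 7 genes in each inguinal lymph node library (points) by genotype and UVB, with group means and SD as bars. UVB points lie below the points without UVB for *Cxcl13*, *Cxcl12*, *Ccl21a* and *Ccr7* within each genotype, and for *Cxcr4* the TG UVB group holds 1 point at 345 CPM and 2 below 100 CPM.

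The genotype made no difference that the tests could see. Between TG and WT nodes 0 of 7 genes passed without UVB, 0 after UVB and 0 over both treatments, with 0 at an unadjusted p under 0.05 in each and 0 by DESeq2. edgeR called 0%, 0% and 0.00618% of all genes in these comparisons, and 3.39%, 6.99% and 4.66% had an unadjusted p under 0.05. Without UVB *Cxcl13* was 1.73-fold higher in TG nodes (log2 fold change 0.79 ± 0.42, SE, 95% interval -0.15 to 1.73), with TG library 5 highest. *Ccr7* was lower in every TG library without UVB than in any WT library, as held for 4.93% of all genes (5.52% were higher), by a log2 fold change of -0.12 (95% interval -0.31 to 0.06). After UVB 5.39% of all genes were higher and 4.32% lower in every TG library than in any WT library, and the difference of *Cxcr4* was -0.73 (95% interval -1.95 to 0.49). For the response to UVB itself the interaction of genotype and UVB passed for 0 of 7 genes, with 0 at an unadjusted p under 0.05, beside 0% of all genes called and 5.45% at an unadjusted p. DESeq2 also called 0, with 1 at an unadjusted p under 0.05. The TG response minus the WT response was 0.24 for *Ccr7* (95% interval -0.02 to 0.50), -0.74 for *Cxcl13* (-2.11 to 0.62) and -1.15 for *Cxcr4* (-2.88 to 0.57) on the log2 scale. With 3 libraries in a group, differences inside these intervals could not be detected.

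**Figure D4:**
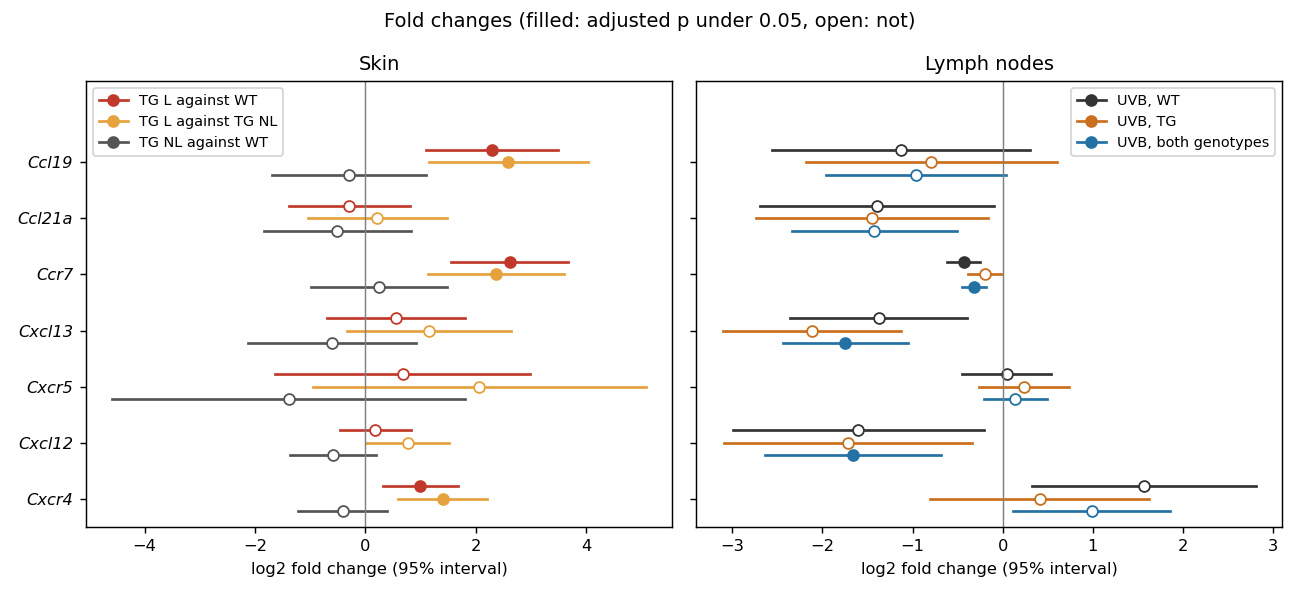
Log2 fold changes of the 7 genes with 95% intervals (lines), from edgeR, for the 3 skin comparisons (left) and for UVB in WT nodes, in TG nodes and over both genotypes (right); filled points have an adjusted p under 0.05. In skin the filled points are *Ccl19*, *Ccr7* and *Cxcr4* in both comparisons of L skin, and in nodes they are *Ccr7* in WT and *Ccr7*, *Cxcl13* and *Cxcl12* over both genotypes.

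The 4 ligands rose and fell together from library to library in the nodes, and so did genes of the stromal cells that make them. Over the 12 node libraries Pearson r of log2 CPM was 0.84 to 0.99 between any pair of ligands, and 0.81 to 0.98 for deviations from the group means. The libraries share groups, so these values are a description. The 8 genes of a lymph node reticular fibroblast list (*Pdpn*, *Pdgfrb*, *Pdgfra*, *Col1a2*, *Bst1*, *Il7*, *Tnfsf13b* and *Madcam1*), none of them one of the 7 genes, had a summed level of 29.4, 30.3 and 24.3 CPM in WT no UVB libraries 1 to 3 and 20.7, 8.29 and 8.40 CPM in WT UVB libraries 7 to 9. In TG nodes the sum was 28.6, 52.2 and 27.4 CPM without and 14.5, 11.2 and 28.4 CPM with UVB. WT UVB library 7 and TG UVB library 12, highest in their groups here, were also highest there in all 4 ligands, as was TG no UVB library 5. The r of the mean log2 level of the list with a ligand was 0.994 for *Ccl21a*, 0.988 for *Cxcl12*, 0.938 for *Cxcl13* and 0.933 for *Ccl19*, and for the receptors it was 0.699 (*Ccr7*), -0.167 (*Cxcr5*) and -0.176 (*Cxcr4*). Other stromal lists followed the ligands about as closely, with r of 0.916 to 0.986 for dermal fibroblast genes and 0.848 to 0.952 for follicular dendritic cell genes, the latter higher than the reticular list for *Ccl19* (0.951). Over both genotypes 2 of the 8 list genes fell with UVB, *Il7*, the survival factor for naive T cells (log2 fold change -2.17, adjusted p = 0.00482), and *Bst1* (-1.02, adjusted p = 0.0204). *Glycam1*, a product of high endothelial venules, fell too (-1.34). Among genes of follicular dendritic cells *Enpp2* (-1.28) and *Mfge8* (-1.01) fell, while *Cr2* (0.42) and *Fcgr2b* (0.52), which B cells also express, rose. Of 7 dermal fibroblast genes 4 fell (*Dpt*, *Lum*, *Col3a1* and *Dcn*), and their part and that of the other stromal genes in the ligand values was not tested beyond the fit that follows.

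**Figure D5:**
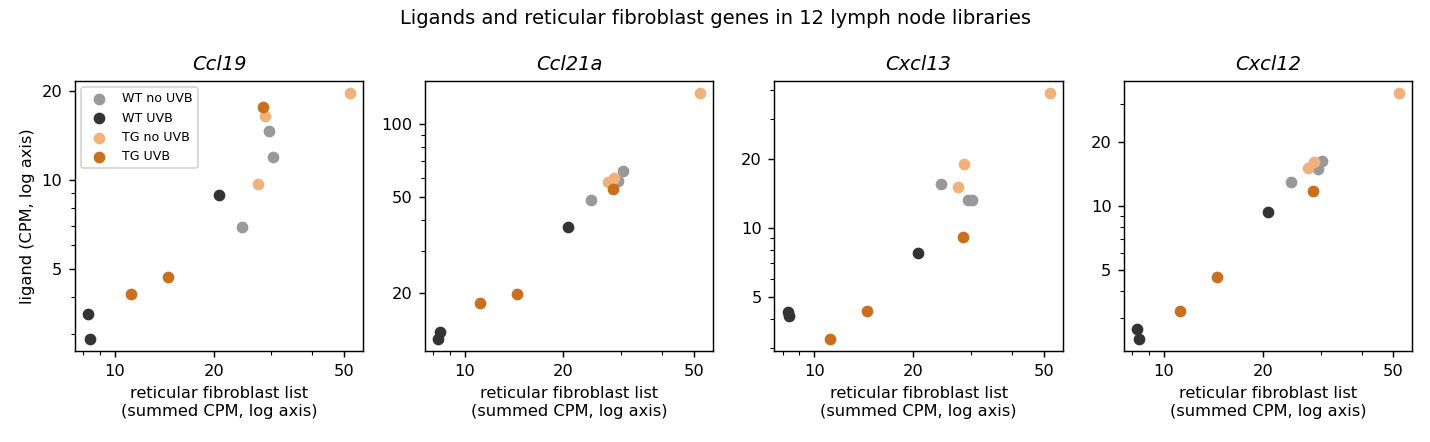
CPM of *Ccl19*, *Ccl21a*, *Cxcl13* and *Cxcl12* (log axis) against the summed CPM of the 8 reticular fibroblast genes (log axis) in the 12 node libraries, coloured by group. Points of all groups run along 1 rising band, with WT UVB libraries 8 and 9 and TG UVB libraries 10 and 11 at the low end and TG no UVB library 5 at the high end.

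With the mean log2 level of this list added to the fit, an alternative chosen after the data were seen, 0 of 7 genes passed in any UVB comparison, and 0 of all 16173 genes did. The UVB values over both genotypes then were -0.15 for *Ccl21a*, -0.32 for *Cxcl12*, -0.75 for *Cxcl13* (adjusted p = 0.425) and 0.29 for *Ccl19*, against -1.42, -1.66, -1.75 and -0.96 without it. For *Ccr7* the value moved from -0.31 to -0.29 and for *Cxcr4* from 0.99 to 1.75. The amount of stroma released through the strainer, the amount of stroma in a node and the ligand RNA per stromal cell cannot be told apart in these samples.

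In nodes the fixed lists were read over both genotypes, where 8.61% of all genes were called, 4.81% higher and 3.8% lower. An unadjusted p under 0.05 was held by 28.2% of all genes there. In WT nodes alone 4.98% of all genes were called, 2.92% higher and 2.06% lower. Of 14 lymphotoxin and NF-κB genes 2 rose, *Tnf* (log2 fold change 0.81) and *Tnfsf11* (0.57), and 0 fell, with 7 at an unadjusted p under 0.05. Of 9 tested scavenging and processing genes 0 passed, with 2 at an unadjusted p under 0.05. Of 19 signalling genes 1 rose, *Rgs1*, a brake on chemokine receptor signalling in lymphocytes (0.54, adjusted p = 0.0247), which also rose in WT nodes alone (0.82, adjusted p = 0.0325). Of 14 genes for other positioning cues 2 fell, *S1pr1*, which lets lymphocytes leave the node (-0.28, adjusted p = 0.0295), and the kinase *Sphk1* (-1.41, adjusted p = 0.0398). In WT nodes follicular helper genes *Icos* (1.12, adjusted p = 0.0213) and *Il21* (2.36, adjusted p = 0.0407) rose, while *Cxcr5*, which such cells share with B cells, did not pass.

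For each gene the 3 other genes with the most similar profile over the libraries of a tissue were listed by Pearson r of log2 CPM, as a description over 12 node or 9 skin libraries. In nodes these were *Clu*, *Dsc3* and *Serping1* for *Ccl21a* (r 0.985 to 0.993), *Dclk1*, *Serping1* and *Mfge8* for *Cxcl12* (0.986 to 0.988), *Tnfaip2*, *Mfge8* and *Abcc9* for *Cxcl13* (0.967 to 0.974) and *Serpina10*, *Col6a3* and *Lpar1* for *Ccl19* (0.966 to 0.974). For the receptors they were *Anxa6*, *Elp2* and *Fam76a* for *Ccr7* (0.966 to 0.978), *Cnr2*, *Scd1* and *Lman1* for *Cxcr5* (0.935 to 0.944) and *Lbhd1*, *Ube2s* and *Gon7* for *Cxcr4* (0.926 to 0.936). *Cxcr5* also followed the B cell list (r 0.831), whose summed level was lowest in TG no UVB library 5 (1341 CPM), and *Ccr7* followed the erythroid list (r 0.873), an adipocyte list (0.841) and the T cell list (0.796). In skin the nearest genes were *Rad51b*, *B3gnt5* and *Zc3h12a* for *Ccr7* (0.981 to 0.984) and *Col6a4*, *Tg* and *Il4i1* for *Ccl19* (0.970 to 0.980). *Ccl21a* in skin followed a list of lymphatic endothelial genes (r 0.726, and 0.862 within groups), whose summed level was 49.8 to 76.2 CPM in L, 72.5 to 90.6 CPM in NL and 82.5 to 157 CPM in WT skin. In skin r between *Ccl21a* and the other ligands was -0.51 to -0.10, and r among *Ccl19*, *Cxcl13* and *Cxcl12* was 0.22 to 0.55.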

How the data were processed

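Poly-A RNA from skin and inguinal lymph nodes was sequenced in read pairs. Per the labels and the processing notes, the authors trimmed reads with cutadapt 4.8, aligned them to GRCm38 with STAR 2.7.8a and deposited RSEM 1.3.3 expected counts per gene, which are not normalized; the annotation release is not given in the sources used here. The deposited expected counts, 1 table per tissue, were rounded to whole numbers, filtered (filterByExpr, minimum count 10, total 15), normalized by TMM and fitted over all groups of a tissue with edgeR 4.0.16 in R 4.3.3 (robust quasi-likelihood F-test, threshold 0.05 after Benjamini-Hochberg adjustment over 19101 genes in skin and 16173 in lymph nodes). SE is the log2 fold change divided by the square root of F. CPM uses the normalized library size, and log2 CPM a prior count of 2. DESeq2 1.42.0, other normalizations, no filter, compared groups only, *Xist* as a covariate, summed gene copies and each library left out were alternatives, and the fit was tested on simulated data.

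The 7 genes and the gene lists were chosen with earlier results of these data known. All 7 are described, and from each list at most 6 genes that passed are named, by smallest p. Symbols with several rows use the row with the highest total. Without molecular identifiers, floors cover counting error only. Gene positions come from GENCODE M21 and promoter windows from RefSeq, GRCm38.p6.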

Additional observations from a re-analysis of the deposited data

Results flagged for a closer look

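*Cxcl12* in L skin had 1 library far from the others. L library 5 had 117 CPM and the other 3 had 258 to 274 CPM, so that the gap to the nearest library was 0.894 of the range of the group, above Dixon's 95% critical value for 4 samples. L skin, the group with 4 samples, was examined in this way for 7 genes, and chance flags about 1 in 20 groups. L library 5 was also the one with the least skeletal muscle signal (22.9 CPM) and with the highest *Ccl21a* (104 CPM).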

How the results depend on the processing

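No paired analysis was possible because the labels number the libraries of a tissue in 1 series, so that groups share no replicate number. With all libraries kept, 394 of the counted values stayed on their side of the threshold and in their direction. Of the rest 9 passed newly, 13 lost the call and 4 reversed. With 1 library left out the numbers were 308, 5, 22 and 9. These totals hold all 7 genes for the skin and UVB comparisons. From the genotype and interaction comparisons they hold only *Cxcl13* and *Ccr7* without UVB, *Cxcr4* after UVB, and *Cxcl13*, *Ccr7* and *Cxcr4* for the interaction. Reversals of other genes there are not counted. The number of the 7 genes called in L against WT skin was 1 with the skeletal muscle covariate, 2 with the compared groups only and 2 to 3 with 1 library left out, and in L against NL skin 0 to 4 with 1 left out. For UVB in WT nodes it was 3 with DESeq2, 3 with the compared groups only, 0 with the reticular fibroblast covariate and 0 to 1 with 1 left out. For UVB in TG nodes it was 1 with DESeq2 and 0 to 1 with 1 left out. For UVB over both genotypes it was 0 with the reticular fibroblast covariate, 4 with DESeq2 or with no robust estimation, 2 with no filter or with *Xist* as a covariate and 2 to 5 with 1 left out, 5 being without TG UVB library 12. Over all genes, UVB in WT nodes called 805, against 2002 with DESeq2 and 2431 with the compared groups only; UVB over both genotypes called 1393, against 2440 with DESeq2 and 3790 without TG UVB library 12; and L against WT skin called 8237, against 2539 with the muscle covariate.

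Some log2 fold changes reversed, among them *Cxcr4* in TG nodes without TG UVB library 12. With 1 library left out they were -0.012 to 0.82 for *Cxcl13* in L against WT skin and -0.30 to 0.49 for *Ccl21a* in L against NL skin (-1.53 with the muscle covariate). In NL against WT skin they were -0.64 to 0.38 for *Ccl19*, -0.16 to 0.75 for *Ccr7* and -0.67 to 0.073 for *Cxcr4*. For *Cxcr5* they were -0.048 to 0.088 for UVB in WT, -0.023 to 0.42 in TG and -0.00037 to 0.22 over both, and for *Cxcr4* in TG nodes -0.60 to 0.78. With the reticular fibroblast covariate *Ccl19* was 0.20 in WT, 0.39 in TG and 0.29 over both. In the genotype and interaction comparisons signs of uncalled values also changed with 1 library left out, as for *Ccl19* after UVB (-0.22 to 1.47) and the *Cxcl12* interaction (-0.83 to 0.83). *Cxcr5* failed the filter in some skin fits and has no value there. Both covariates were chosen after the data were seen, and the cause was not tested. Groups of 2 to 4 libraries limit what could be detected.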
